A study of Mus musculus with 12 samples.

Results

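A set of 10 imprinted genes that control growth was followed in mammary tumors of MMTV-Neu mice: H19, Igf2, Igf2r, Dlk1, Meg3, Peg3, Mest, Cdkn1c, Plagl1 and Grb10. They were selected by symbol from the 54532 genes of the count table, and all 10 were listed there. The list was built around H19 after a high H19 count was seen in 1 bexarotene-treated tumor, so the H19 values that involve bexarotene are given as a description and carry no test. Poly(A) RNA of 12 tumors had been sequenced, 4 from each diet group, and both compounds activate the retinoid X receptor (RXR). All mice, controls included, carried a Neu transgene driven in mammary epithelium by a viral promoter (MMTV, from mouse mammary tumor virus), a model of HER2-positive breast cancer. Control mice ate powdered chow mixed with the vehicle, and the other groups ate it with MSU-42011 or bexarotene in that vehicle, each at 100 mg/kg diet and for the same time. The samples were frozen pieces of whole tumor, so that fewer cells of a type and less RNA per cell cannot be told apart.

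An imprinted gene is expressed from the maternal or the paternal copy only. The 2 copies were not told apart in these data, so whether a listed gene was imprinted in these tumors was not measured. H19 is a maternally expressed non-coding RNA, and its neighbor Igf2 is a paternally expressed growth factor that shares enhancers with it. Igf2r removes IGF2 protein, Grb10 and Cdkn1c restrain growth signaling and the cell cycle, and Plagl1 is a transcription factor that acts on several imprinted genes. Dlk1, a paternally expressed membrane protein, and Meg3, a maternally expressed non-coding RNA, are neighbors in another imprinted region. Many of these genes are high in the fetus, fall after birth and stay on in stromal or progenitor cells of adult tissue.

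Each tumor had 16583413 to 25925027 reads assigned to genes. Levels are given as normalized CPM, read counts scaled to a common library total, and a floor of 3 counts corresponded to 0.111 to 0.184 normalized CPM. This floor, like any single count, covers counting error only. Bexarotene replicate 1 stood apart from the other tumors over genes as a whole. Across genes, its correlation with each of the other 11 tumors had a median of 0.915, while every other tumor had a median of 0.961 or more. It was the highest of the 12 tumors at 19.1% of the 15504 genes tested. Its 12 fibroblast markers summed to 13219 normalized CPM, against 122 to 1109 in the others, and its 8 luminal epithelial markers to 3130, against 4773 to 6501. Skeletal muscle markers summed to 382 in this tumor and 199 in control replicate 1, against 9.40 to 18.1 in the other 10. Results that rest on bexarotene replicate 1 are therefore given with and without it.

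H19 and Meg3 are also the hosts of microRNAs, and the mature sequences show which short RNAs lie inside these transcripts. They are from RefSeq on GRCm38.p6, with the seed, bases 2 to 8, in capitals. Mir675 lies within H19 at chr7:142577064-142577147 on the minus strand, and Mir770 within Meg3 at chr12:109563692-109563785 on the plus strand. No 2 of these 4 seeds were the same, and each seed occurred in 1 mature mouse microRNA of the table. Both microRNA genes were listed with 0 reads in all 12 tumors, where poly(A) libraries are not made to hold mature microRNAs, so the host values below say nothing of the microRNAs.
miR-675-5p: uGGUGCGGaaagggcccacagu
miR-675-3p: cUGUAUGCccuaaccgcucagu
miR-770-5p: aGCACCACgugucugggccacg
miR-770-3p: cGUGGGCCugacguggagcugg

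H19 (ENSMUSG00000000031, chromosome 7 from 142575529 to 142578143 on GRCm38) was near the detection floor in most tumors and high in 1. In control tumors, replicates 1 to 4 had 1.54, 0.0947, 0.374 and 0.0862 normalized CPM. The MSU-42011-treated tumors had 0.110, 0.788, 0.0542 and 0.0419. The bexarotene-treated tumors had 72.9, 5.06, 0.533 and 0.920. The 2 highest of the 12 tumors were thus bexarotene replicates 1 and 2, and control replicate 1 came next, above the other bexarotene-treated tumors. Bexarotene replicate 1 alone held 1975 of the 2161 H19 reads, 14.4-fold the normalized CPM of the next tumor. H19 passed the filter on low counts only through the bexarotene group, since 2 of the 8 other tumors reached its level. The group means ± SD (4 tumors each) were 0.524 ± 0.692 normalized CPM for control, 0.248 ± 0.361 for MSU-42011 and 19.8 ± 35.4 for bexarotene.

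The log2 fold change of H19 for MSU-42011 against control was −1.09, with a 95% interval from −4.78 to 2.61. It did not pass the test (edgeR, Benjamini-Hochberg adjusted p = 0.9999; p = 0.514 by exact permutation, two-sided). This test could decide little, with 37 H19 reads in the control tumors and 17 in the MSU-42011-treated ones. The edgeR fit also took its spread from all 12 tumors, bexarotene replicate 1 included. The log2 fold change was 0.38 without control replicate 1, the control tumor with the high muscle markers. With bexarotene the log2 fold change against control was 5.29, and 2.09 without bexarotene replicate 1. For MSU-42011 against bexarotene it was −6.38, and −3.18 without that tumor. Groups overlapped in all 3 comparisons.

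**Figure D1:**
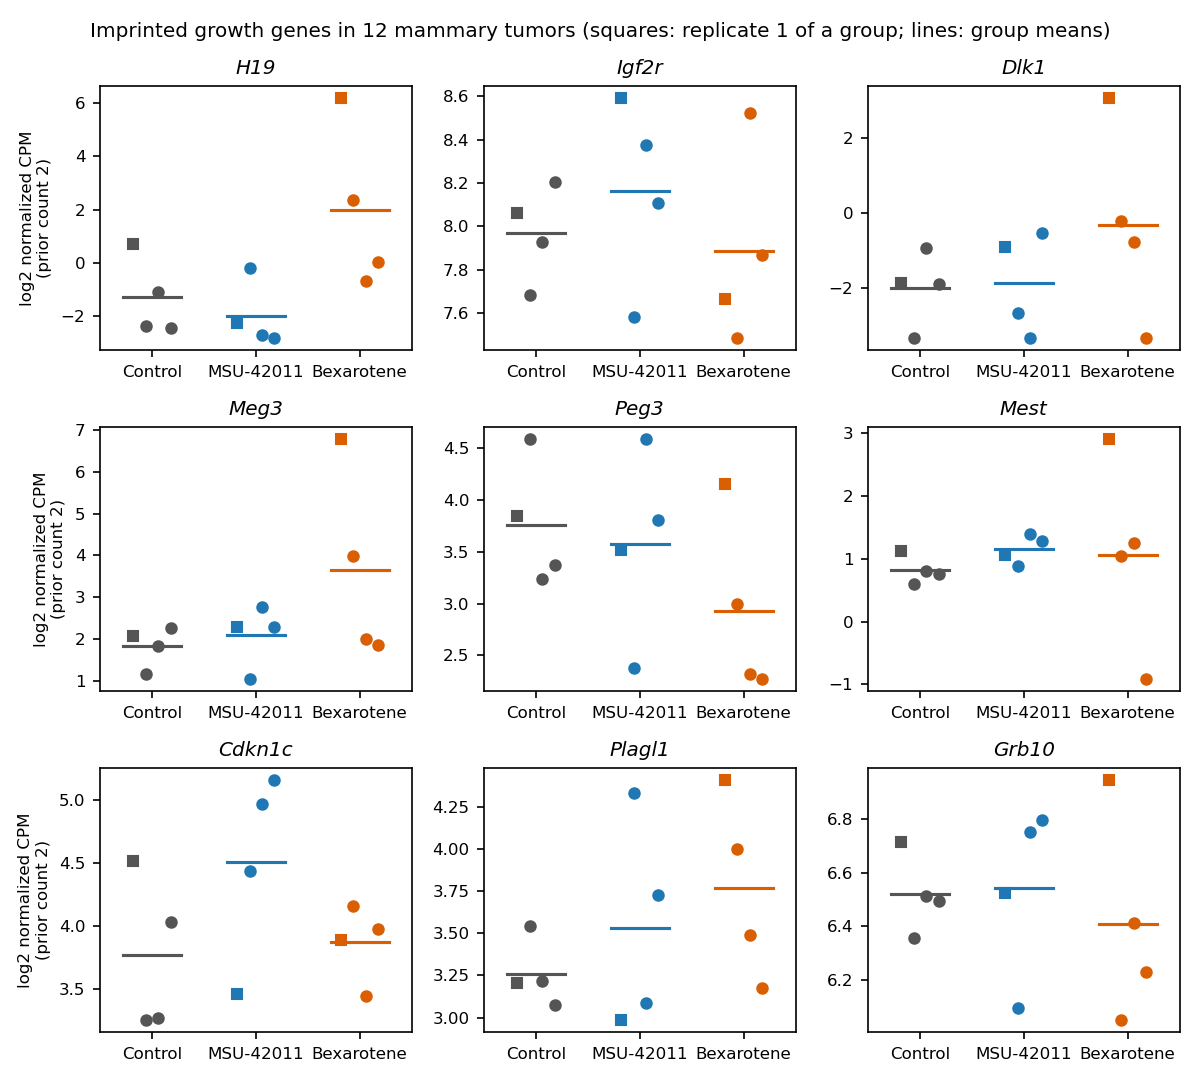
Log2 normalized CPM (y axis, prior count 2, a scale of its own in each panel) of 9 imprinted genes in the 4 tumors of each diet group (x axis), with replicate 1 as squares, the other tumors as circles and group means as lines. H19, Dlk1 and Meg3 were highest in bexarotene replicate 1, while Igf2r was highest in MSU-42011 replicate 1 at 386 normalized CPM.

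Igf2 (chromosome 7 from 142650766 to 142666816) had 2 reads in the whole series, 1 in bexarotene replicate 1 and 1 in bexarotene replicate 4. This count cannot be read as a level of Igf2. In GENCODE M21, whose gene coordinates were those of the count table at 98.1% of the genes, 62.8% of the exon bases of Igf2 also belong to Gm49394 on the same strand. The overlap held all 540 coding bases of the transcript Igf2-201, in 3 exon stretches at chr7:142650769-142654052, chr7:142654300-142654448 and chr7:142655654-142655816. Gm49394 was listed with 0 reads in every tumor. Reads that fall on exons of more than 1 gene are dropped by featureCounts, the counting tool in the submitters' processing notes, unless it is set otherwise, and its settings are not given in the sources used here. No value of Igf2 is therefore compared between groups. Of the other genes beside H19 and Igf2, Ins2 had 0 reads, Igf2os had 2, and Ascl2, a placental transcription factor, had 92.

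Dlk1 and Meg3, on chromosome 12 at 109452823 to 109463336 and 109541001 to 109571726, were highest in the same tumors as H19. H19 aside, 4 of the 7 genes of the list that passed the filter were highest in bexarotene replicate 1, where 19.1% of all genes tested were. Plagl1 and Grb10 are among these 4 by 1.05-fold and 1.11-fold over the next tumor. Meg3 had 4.09, 2.13, 3.47 and 4.65 normalized CPM in control tumors. It had 4.78, 1.94, 6.72 and 4.78 with MSU-42011. With bexarotene it had 111, 15.7, 3.87 and 3.49, so that replicates 3 and 4 lay within the control range. Dlk1 was too low for the expression filter. Its counts were 3, 0, 8 and 4 in control tumors, 8, 1, 0 and 14 with MSU-42011, and 223, 16, 10 and 0 with bexarotene.

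Meg3 was 3.22 higher on the log2 scale with bexarotene than in control tumors, with a 95% interval from 1.13 to 5.31. Its unadjusted edgeR p was 0.00558 and its Benjamini-Hochberg adjusted p was 0.762 over all 15504 genes (0.162 to 0.978 over the alternatives), which did not pass 0.05. The exact two-sided permutation p was 0.229, where 4 tumors against 4 cannot go below 0.0286. When bexarotene replicate 1 was left out, the log2 fold change of Meg3 was 1.10, with an interval from −0.061 to 2.27. With MSU-42011 it was 0.35 (−1.63 to 2.32). Between the compounds it was −2.87 (−4.93 to −0.82, adjusted p = 0.997 by edgeR with Benjamini-Hochberg adjustment), and −0.76 without that tumor. Without a filter on low counts, Dlk1 had log2 fold changes of 0.54 with MSU-42011, 3.58 with bexarotene and −3.04 between the compounds (edgeR, Benjamini-Hochberg adjusted p = 1, 0.665 and 0.792), and the latter were 1.11 and −0.58 without bexarotene replicate 1.

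**Figure D2:**
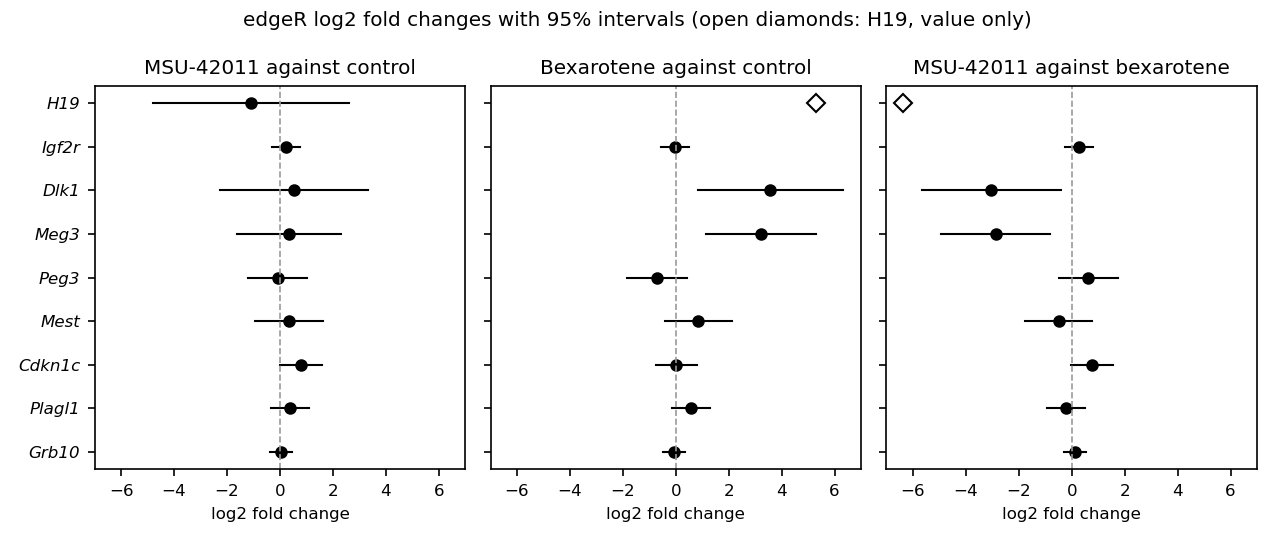
Log2 fold changes (x axis) of 9 imprinted genes (y axis) from edgeR, with 95% intervals as bars, in the 3 comparisons of diet groups. Open diamonds give H19 where its values chose the list (5.29 and −6.38, no interval drawn), and Dlk1 is from the fit without a filter. The intervals of Meg3 and Dlk1 leave out 0 in both comparisons with bexarotene, but neither gene passed adjustment there. The exact two-sided permutation p of Dlk1 was 0.286 for bexarotene against control and 0.4 between the compounds.

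Other transcripts of the Dlk1 to Dio3 region on chromosome 12 also had their highest counts in bexarotene replicate 1. They were looked at after the values of Meg3 had been seen and are given with no test. Rian, a non-coding RNA downstream of Meg3 that carries small nucleolar RNAs, had 1909 reads in bexarotene replicate 1 and 198 in replicate 2, against 23 to 134 in the other 10 tumors. Mirg, the host of a microRNA cluster, had 94 and 14 reads in those tumors, against 0 to 8. Dio3, which encodes the deiodinase that inactivates thyroid hormone, had 534 and 33, against 0 to 14, and the 14 were in control replicate 1. Rtl1, a retrotransposon-derived gene, had 22 of its 31 reads in bexarotene replicate 1 and 4 in control replicate 4, the next highest, and Begain, at the edge of the region, 103 of its 153. The ratio of Meg3 to Rian ran from 0.851 to 2.48 over all 12 tumors. Paternally expressed Dlk1, Rtl1 and Dio3 and maternally expressed Meg3, Rian and Mirg all had their highest count in bexarotene replicate 1. Elsewhere they could part, as in MSU-42011 replicate 4, with 14 reads of Dlk1 and 0 of Dio3.

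The 250 bases upstream of the RefSeq starts of Dlk1 and Meg3 are shown because both neighbors had their highest count in the same tumor. They were searched on both strands for AGGTCA, the half-site that nuclear receptors such as RXR recognise. Capitals mark a match. This motif was in 14% of the 32851 mouse promoters searched, in 3 of the 15 upstream stretches listed for 8 of the 10 imprinted genes, and here in the second Meg3 start only, where it reads TGACCT from 5′ to 3′. A match is a run of letters and no evidence of binding. The stretches, all on the plus strand of GRCm38.p6, are Dlk1 at chr12:109452573-109452822, the first Meg3 start at chr12:109540746-109540995 and the second at chr12:109545148-109545397.
Dlk1: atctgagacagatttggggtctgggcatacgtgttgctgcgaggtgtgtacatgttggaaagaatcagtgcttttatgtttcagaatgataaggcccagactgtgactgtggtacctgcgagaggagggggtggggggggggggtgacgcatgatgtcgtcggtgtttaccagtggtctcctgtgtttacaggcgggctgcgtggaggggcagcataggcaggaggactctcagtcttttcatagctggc
Meg3, first start: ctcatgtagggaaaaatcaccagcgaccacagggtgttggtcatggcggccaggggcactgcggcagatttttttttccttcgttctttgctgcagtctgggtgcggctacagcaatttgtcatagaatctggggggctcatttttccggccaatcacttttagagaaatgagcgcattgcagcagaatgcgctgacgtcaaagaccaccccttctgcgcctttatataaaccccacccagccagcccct
Meg3, second start: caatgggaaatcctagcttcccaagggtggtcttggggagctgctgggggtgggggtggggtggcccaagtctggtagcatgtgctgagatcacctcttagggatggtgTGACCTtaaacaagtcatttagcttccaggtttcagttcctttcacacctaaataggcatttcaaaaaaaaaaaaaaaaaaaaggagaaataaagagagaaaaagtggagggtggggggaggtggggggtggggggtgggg

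Meg3 tracked the summed fibroblast markers. This relation, between each of 9 imprinted genes and the summed level of 2 marker lists, was examined after the data had been seen. Over the 12 tumors, log2 normalized CPM of Meg3 rose with the log2 sum of the fibroblast markers (Pearson's r = 0.973, permutation p = 2e-05; Spearman's rho = 0.888, permutation p = 0.00031). With Benjamini-Hochberg adjustment over the 16 relations tested, these permutation p-values were 0.00032 and 0.00496. With bexarotene replicate 1 left out, r was 0.886 (permutation p = 0.00039, adjusted 0.00624), and without both bexarotene replicates 1 and 2, the tumors farthest from the median, it was 0.786. Per 1000 CPM of fibroblast markers, Meg3 had 7.25 to 18.5 normalized CPM in the 12 tumors. That span was narrow beside the marker sum, which ran from 122 to 13219.

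The r of H19 with this sum was 0.821 over 12 tumors and 0.426 without bexarotene replicate 1, with rho of 0.238 and 0.00909, given with no p. Against single markers the values spread widely. Without that tumor, Lum (r = 0.844), Dpt (0.816) and Fn1 (0.702) stayed close to H19, while Pdgfrb (−0.30) and Thy1 (−0.18) had the lowest r of the 12 markers. Dcn, a proteoglycan gene of fibroblasts from the list of other imprinted genes, also stayed close (0.866). Of the skeletal muscle markers tested, Tcap (0.686), Atp2a1 (0.602) and Mylpf (0.483) had the highest r with H19 without that tumor. Ckm (0.321), Tnni2 (0.244), Acta1 (0.084) and Mb (−0.34) were lower. Tcap and Acta1 passed the filter on low counts only through the bexarotene group. Per 1000 CPM of fibroblast markers, H19 ran from 0.0920 to 5.51 normalized CPM. The lowest ratios, in MSU-42011 replicates 3 and 4, rested on 1 H19 read each. For Dlk1 r was 0.810, and 0.434 without bexarotene replicate 1 (Benjamini-Hochberg adjusted permutation p = 0.0509 and 0.721). For Mest these were 0.781 and 0.484 (0.0509 and 0.721), with rho of 0.762 and 0.691. The rho of Mest over 12 tumors passed the threshold (Benjamini-Hochberg adjusted permutation p = 0.0299). The other 5 imprinted genes had r between −0.23 and 0.522 over 12 tumors. Without bexarotene replicates 1 and 2, Meg3 was not alone in a high r, for which no p was computed. It was 0.786 for Meg3, 0.745 for Grb10, 0.670 for Cdkn1c, 0.587 for Igf2r and 0.560 for Mest. For Peg3, Dlk1, H19 and Plagl1 it was 0.283, 0.216, −0.042 and −0.32. No value for the skeletal muscle markers passed the adjusted threshold by r (the smallest adjusted permutation p was 0.175), while rho with Igf2r was −0.77 (adjusted permutation p = 0.0299). H19 had r of 0.748 with the muscle sum over 12 tumors and 0.384 without bexarotene replicate 1. Its rho was 0.573 and 0.445, given with no p. Without control replicate 1 as well, r was 0.203. For Meg3 r was 0.608 over 12 tumors and −0.13 without bexarotene replicate 1, with rho of −0.091 and −0.42. For Dlk1 these were 0.529 and −0.11, with rho of 0.056 and −0.23.

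**Figure D3:**
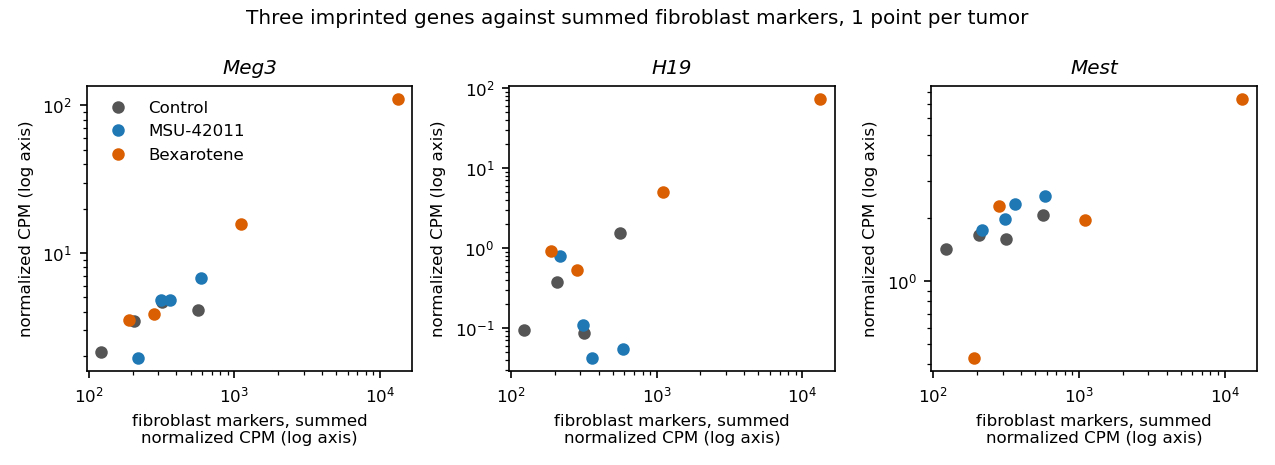
Normalized CPM (y axis, log axis) of Meg3, H19 and Mest against the summed normalized CPM of 12 fibroblast markers (x axis, log axis), with 1 point per tumor colored by diet group. Meg3 lay along a line from 1.94 to 111 normalized CPM, while the points of H19 scattered among tumors with a sum of 589 or less.

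Mest and Peg3 are paternally expressed and encode a hydrolase-like protein and a zinc finger protein. Mest had 2.08, 1.42, 1.66 and 1.59 normalized CPM in control tumors, 1.98, 1.76, 2.55 and 2.35 with MSU-42011 and 7.42, 1.96, 2.28 and 0.429 with bexarotene. The highest and the lowest tumor of the series were thus both in the bexarotene group. The log2 fold change of Mest against control was 0.36 for MSU-42011 (−0.93 to 1.64) and 0.85 for bexarotene (−0.43 to 2.13), and the latter was −0.10 without bexarotene replicate 1. Of the exon bases of Mest, 23.1% overlap Copg2 on the other strand. Whether the counting used the strand is not given in the sources used here, so it is not known how reads in this overlap were assigned or whether they were dropped. Copg2 had 1216 to 1811 reads per tumor.

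Peg3 had 14.3, 24.0, 9.35 and 10.3 normalized CPM in control tumors and 11.3, 5.09, 24.0 and 14.0 with MSU-42011. With bexarotene it had 17.7, 7.87, 4.89 and 4.72, and replicates 2 to 4 lay below every control tumor. Its log2 fold change with bexarotene was −0.71 (−1.83 to 0.41, edgeR Benjamini-Hochberg adjusted p = 0.882). With bexarotene replicate 1 left out it was −1.31 (−2.34 to −0.28), with an unadjusted edgeR p of 0.0167 and an adjusted p of 0.978 (0.738 to 0.999 over the alternatives). With MSU-42011 it was −0.091 (−1.20 to 1.02). Between the compounds it was 0.62 (−0.50 to 1.74), and 1.22 (0.19 to 2.25) without bexarotene replicate 1, with an unadjusted edgeR p of 0.0236 and an adjusted p of 0.939 (0.788 to 1.00 over the alternatives).

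Igf2r and Grb10 were the most abundant of the list per length. In the authors' FPKM, which scale counts by library size and gene length, the mean ± SD of Igf2r over 4 tumors was 74.4 ± 11.1 for control, 91.4 ± 26.3 for MSU-42011 and 74.6 ± 26.7 for bexarotene. Grb10 followed with 44.5 ± 5.14, 48.0 ± 10.6 and 43.7 ± 14.1 FPKM, and in control tumors it lay below Igf2r with no overlap. Of the others in control tumors, Cdkn1c (12.6 ± 5.57) and Plagl1 (9.50 ± 1.30) came next, with overlapping ranges, and then Peg3 (3.21 ± 1.43). Mest (1.54 ± 0.270) and Meg3 (1.30 ± 0.390) were lower than these and overlapped each other. H19 (0.414 ± 0.545) overlapped both Meg3 and Dlk1 (0.0958 ± 0.0886), the lowest of the 9 genes (FPKM, SD, n = 4 each). The order depends on the gene lengths the authors used, which for Meg3 was 2.70 kb against 18.1 kb of listed exons.

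Igf2r, the receptor that sends IGF2 to the lysosome, had 267, 205, 243 and 295 normalized CPM in control tumors, 386, 192, 332 and 276 with MSU-42011 and 203, 179, 368 and 233 with bexarotene. Its log2 fold changes were 0.23 with MSU-42011 (−0.30 to 0.77) and −0.040 with bexarotene (−0.57 to 0.49). Grb10, an adaptor that dampens insulin and IGF receptor signals, had 105, 81.9, 91.3 and 90.0 normalized CPM in control tumors. It had 92.0, 68.3, 108 and 111 with MSU-42011 and 123, 66.2, 85.0 and 75.0 with bexarotene. Its log2 fold changes were 0.043 with MSU-42011 (−0.38 to 0.47) and −0.075 with bexarotene (−0.50 to 0.35). Neither gene differed beyond the spread between tumors, and over the 3 comparisons the intervals of Grb10 lay between −0.50 and 0.54.

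Cdkn1c encodes the cyclin-dependent kinase inhibitor p57. It had 22.8, 9.42, 9.57 and 16.2 normalized CPM in control tumors, 10.9, 21.6, 31.3 and 35.7 with MSU-42011 and 14.8, 17.8, 10.8 and 15.7 with bexarotene. The 2 highest tumors were MSU-42011 replicates 4 and 3. Its log2 fold change with MSU-42011 was 0.78 (−0.015 to 1.57, unadjusted edgeR p = 0.0539, Benjamini-Hochberg adjusted p = 0.9999; p = 0.171 by exact permutation). In the fit without a filter the unadjusted edgeR p was 0.0323 and the adjusted p 0.948, the lowest of the alternatives. For bexarotene the log2 fold change was 0.025 (−0.77 to 0.82), and between the compounds 0.75 (−0.039 to 1.55, edgeR Benjamini-Hochberg adjusted p = 0.997). Gm44732 overlaps 30.7% of the Cdkn1c exon bases on the other strand.

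Plagl1, a zinc finger transcription factor, had 9.14, 11.6, 9.19 and 8.32 normalized CPM in control tumors. It had 7.81, 20.1, 8.40 and 13.1 with MSU-42011 and 21.1, 15.9, 11.1 and 8.95 with bexarotene. Bexarotene replicates 1 and 2 lay above every control tumor and replicate 4 within their range. The log2 fold change of Plagl1 was 0.37 for MSU-42011 (−0.34 to 1.08) and 0.58 for bexarotene (−0.13 to 1.29, edgeR Benjamini-Hochberg adjusted p = 0.846), which became 0.33 without bexarotene replicate 1.

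Of the 8 imprinted genes of the list that passed the filter on low counts, 0 had an edgeR adjusted p (Benjamini-Hochberg) under 0.05 in any comparison in which they were tested. This matched the background, since 0% of the 15504 genes were called in each comparison. At an unadjusted p under 0.05, the counts were 0 of 7 for MSU-42011 against control (background 1.99%, with 1.14% higher and 0.851% lower), 1 of 7 for bexarotene against control (background 6.44%) and 1 of 7 for MSU-42011 against bexarotene (background 3.95%). H19, which passed the filter only through the bexarotene group, was not counted in any of them. The single gene was Meg3 in both comparisons with bexarotene. DESeq2 and limma on log2 FPKM also called 0 of them in the comparisons in which they were tested. The groups did not separate for any of the 10 genes in any comparison, against a background of 1.97%, 2.03% and 1.17% of genes whose groups did not overlap. Without H19, the median log2 fold change of the other 7 genes was 0.35 with MSU-42011, 0.025 with bexarotene and 0.12 between the compounds, beside 0.0016, 0.030 and −0.024 over all genes tested. Leaving out bexarotene replicate 1 moved the median of the 7 genes between the compounds to 0.33.

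At the matched dose and time, MSU-42011 and bexarotene could thus be compared on 8 imprinted genes other than H19 and Igf2. The remaining log2 fold changes between the compounds, each with its 95% interval, were 0.27 for Igf2r (−0.26 to 0.81), 0.12 for Grb10 (−0.31 to 0.54), −0.49 for Mest (−1.76 to 0.77) and −0.21 for Plagl1 (−0.92 to 0.49). For all 8 the edgeR p adjusted over the genes tested (Benjamini-Hochberg) was 0.792 or more. These intervals show how large a difference the 4 tumors per group leave possible, and they do not show that the compounds act alike.

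Relations among the imprinted genes were computed across tumors on log2 normalized CPM. The 36 pairs of 9 genes leave out Igf2, and the 8 pairs with H19 carry no p. Of the 28 pairs tested, 6 had an unadjusted permutation p under 0.05 for Pearson's r and 0 after Benjamini-Hochberg adjustment. The largest was Dlk1 with Meg3 (r = 0.83, permutation p = 0.00416, adjusted 0.116; rho = 0.585, adjusted 0.280), and its r was 0.499 without bexarotene replicate 1. Igf2r and Plagl1 ran in opposite directions (r = −0.70, permutation p = 0.0124, adjusted 0.120; rho = −0.75, adjusted 0.145). The sign stayed without bexarotene replicate 1 (r = −0.68) and without the 2 tumors farthest from the median of Igf2r (r = −0.75). Peg3 with Grb10 had r = 0.664 (adjusted permutation p = 0.134) over 12 tumors and 0.632 without bexarotene replicate 1.

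H19 had r of 0.794 with Meg3, 0.704 with Dlk1 and 0.661 with Plagl1 over the 12 tumors, and 0.341, 0.231 and 0.424 without bexarotene replicate 1. With Meg3, rho was 0.119 over 12 tumors. With Igf2r, r was −0.55 over 12 tumors and −0.54 without that tumor, and with Grb10 it went from 0.083 to −0.62. On deviations from the group means, bexarotene replicate 1 included, 5 of the 28 pairs passed an adjusted permutation p of 0.05: Igf2r with Plagl1 (r = −0.78), Dlk1 with Meg3 (0.784), Dlk1 with Mest (0.827), Meg3 with Peg3 (0.705) and Meg3 with Mest (0.818). The permutations shuffled these deviations freely and took no account of the means removed, so their p-values can be too small. These 5 pairs are therefore not read as related.

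Likeness to H19 was ranked over all genes tested. Among 15503 other genes tested, Fbln1, which encodes the matrix protein fibulin-1, had the highest Pearson's r with H19 over the 12 tumors (0.977, rho = 0.867). It was followed by Cmah (0.964), Fgf7, Cthrc1, Cilp, Mfap4, Medag, Thbs4, Sfrp2 and Adam33 (0.943). Fbln1 had 146 normalized CPM in bexarotene replicate 1, 13.5 in replicate 2 and 0.0947 to 2.20 in the other tumors. Fbln1, Cthrc1, Medag and Sfrp2 passed the filter on low counts only through the bexarotene group, as H19 did. Over the 11 tumors without bexarotene replicate 1, the 10 genes most like H19 were Znhit6 (0.944), Fbln1 (0.940), Gm48838, Rusc1, Mfap4, Bfar, Cmah, Thbs4, Cilp and Akr1e1 (0.891). Fbln1, Mfap4, Cmah, Thbs4 and Cilp were in both sets of 10. Like H19, Fbln1, Cilp, Mfap4 and Thbs4 were higher in control replicate 1 than in the other control tumors. The points share library and depth, and these values describe likeness only.

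Other imprinted genes split into those that followed bexarotene replicate 1 and those that did not. Of 65 listed, 61 had reads and 40 passed the filter. Of the 40 tested, 14 were highest in bexarotene replicate 1 (background 19.1%). Of the 61 it was 30, a count with no background beside it, since it takes in genes below the filter such as Slc22a2 with 2 reads. Ndn, encoding necdin (log2 fold change 4.34 with bexarotene against control), and Mkrn3 (2.52) passed the filter on low counts only through the bexarotene group. They are among the 14 above, are given as a description and are left out of the counts with bexarotene that follow. At an unadjusted p under 0.05, 5 of the other genes tested were higher and 0 lower with bexarotene than in control tumors. The background was 4.48% higher and 1.96% lower, over all genes that passed the filter by any group. After adjustment 0 passed (edgeR, Benjamini-Hochberg). The smallest p of the others were those of Tfpi2, a protease inhibitor (2.36, unadjusted p = 0.00948), and Rian (2.89, unadjusted p = 0.0120). The remaining 3, named after their values were seen, were Sgce (2.49), Dcn (5.24) and Ppp1r9a (1.41). Dcn encodes decorin, a matrix proteoglycan of fibroblasts, and had 345 normalized CPM in bexarotene replicate 1, 30.4 in replicate 2 and 0 to 7.95 elsewhere. With bexarotene replicate 1 left out, none of the 5 genes other than Ndn and Mkrn3 had an unadjusted edgeR p under 0.05, and the log2 fold change of Mkrn3 was 2.17. Ampd3 was then lower at an unadjusted p under 0.05 (log2 fold change −0.79, edgeR Benjamini-Hochberg adjusted p = 0.978), where the background was 1.72% lower and 1.58% higher.

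With MSU-42011 against control, 0 of the 40 had an unadjusted edgeR p under 0.05 (background 1.99%). Between the compounds Sgce, Dcn and Rian were lower with MSU-42011 at that threshold (background 3.13% lower), none of them without bexarotene replicate 1. Ndn is not counted there, because it passed the filter only through the bexarotene group. The median log2 fold change over the 40 genes was 0.028 with MSU-42011 and 0.035 with bexarotene, near the 0.0016 and 0.030 of all genes. Kcnq1ot1, the non-coding RNA of the imprinted region next to H19 and Igf2, ran from 12.7 to 33.7 normalized CPM, with its highest values in MSU-42011 replicate 2 and bexarotene replicate 2. Cd81, a membrane protein in that region with the most reads of these genes, ran from 576 in bexarotene replicate 1 to 1252 in control replicate 2. Snrpn ran from 9.78 to 15.8 normalized CPM and Gnas from 88.0 to 119.

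**Figure D4:**
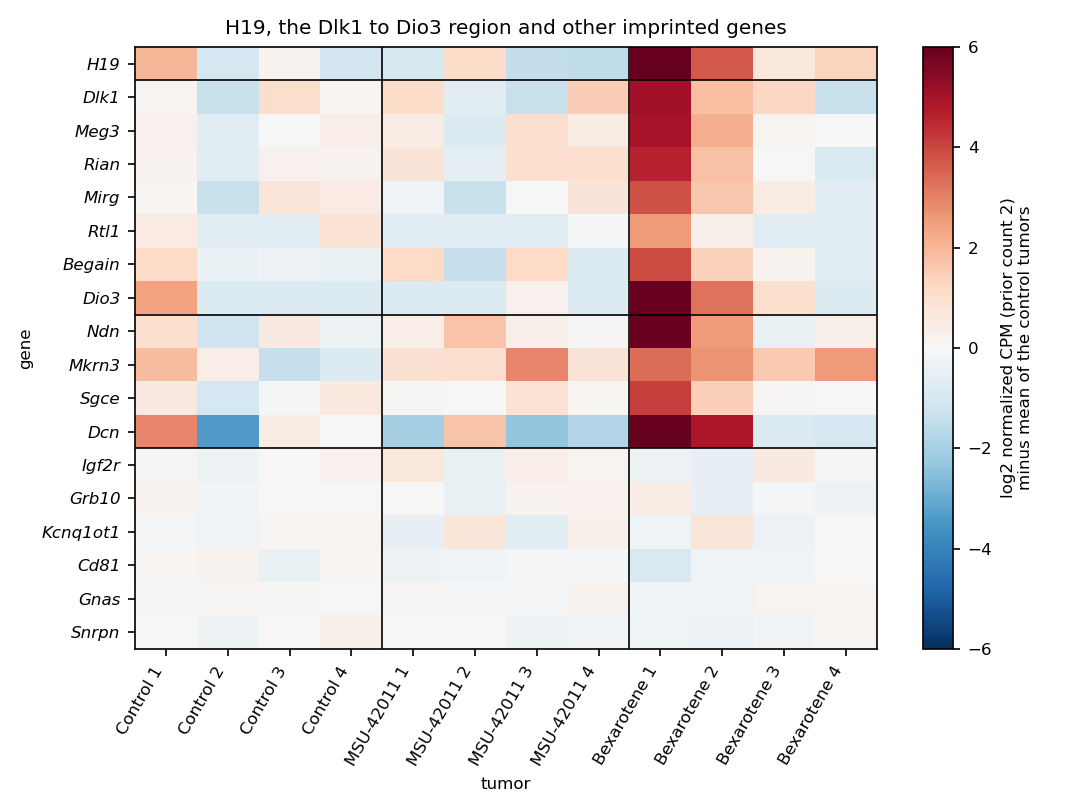
Log2 normalized CPM minus the mean of the 4 control tumors (color, cut at −6 and 6) of 18 imprinted genes (rows), picked for display, in the 12 tumors (columns). Horizontal lines set off H19, the Dlk1 to Dio3 region, 4 other genes that were highest in bexarotene replicate 1, and 6 that changed little among the tumors. Dio3 reached 6.83 and H19 7.48 in bexarotene replicate 1.

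The insulin-like growth factor genes around Igf2 were read on 26 of 29 genes that passed the filter. With bexarotene against control, 5 were higher and 1 lower at an unadjusted edgeR p under 0.05 (background 4.48% higher and 1.96% lower). Igfbp6 was 1 of the 5, but it passed the filter only through the bexarotene group and is given as a description. The genes with the smallest p were the binding proteins Igfbp4 (log2 fold change 2.48, unadjusted p = 0.00966), Igfbp6 (5.09) and Igfbp5 (−0.74, unadjusted p = 0.0238). These were 0.49, 1.86 and −0.63 without bexarotene replicate 1. The only gene of the list with an unadjusted edgeR p under 0.05 was then Irs1, an insulin receptor substrate (−0.63, adjusted p = 0.978; background 1.72% lower). For MSU-42011 against control the count was 0 of 26. Between the compounds it was 6 (background 3.95%), and 2 without bexarotene replicate 1 (background 3.08%), with Igfbp6 among the 26 genes tested.

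Of the genes that maintain or insulate imprints, 21 of 24 passed the filter. Zfp57, which protects methylated imprints, was higher with bexarotene at an unadjusted edgeR p of 0.0274 (log2 fold change 1.15), and 0.56 without bexarotene replicate 1. Smchd1, a chromatin protein, was higher with MSU-42011 than with bexarotene (0.25, edgeR Benjamini-Hochberg adjusted p = 0.997), with an unadjusted p under 0.05 here and without bexarotene replicate 1. Neither gene passed adjustment, and the summed level of the list ran only from 1351 to 1565 normalized CPM over the 12 tumors. Of 11 genes of the let-7 and oncofetal program, which holds the Igf2 mRNA-binding proteins, 5 passed the filter and 0 had an unadjusted edgeR p under 0.05 in any comparison. Lin28a, Lin28b and Hmga2 had 7, 2 and 5 reads in the whole series.

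Several marker lists of other cell types moved with the same tumor. With bexarotene against control, 9 of 12 fibroblast markers were higher at an unadjusted edgeR p under 0.05 (background 4.48%), and 0 without bexarotene replicate 1 (background 1.58%). All 12 fibroblast, 8 of 8 endothelial and 8 of 8 macrophage markers were highest in bexarotene replicate 1. The endothelial sum was 561 there, against 99.5 to 262 elsewhere, and the macrophage sum 2345, against 286 to 842. The adipocyte sum was 200 against 76.5 to 111, and the basal and myoepithelial sum 267 against 26.6 to 117. In that tumor Acta2 had the most reads of the basal and myoepithelial list, with 5292 against 216 to 882 elsewhere. Oxtr of the same list had 433 there, against 89 to 1263, and 2 of the 5 markers of the list that passed the filter were highest there. T cell markers summed to 5.52 to 14.2 in the 12 tumors. The cartilage and bone sum, of which Comp made up most, did not follow bexarotene replicate 1. It was 41.7 to 285 in control tumors, 191 to 705 with MSU-42011 and 625 to 1556 with bexarotene. Bexarotene replicate 1 had the lowest sum of its group. Of 8 myogenic progenitor markers, Myod1 had 0 reads and the list summed to 1.13 or less in every tumor. Of the 8 luminal markers of the labelled tissue, Epcam, Krt8 and Krt18 were at 485 normalized CPM or more in all tumors. Krt19 had 763 reads in bexarotene replicate 1 and 0 to 41 in the others. The part of these cell types in the values of H19, Meg3 and Dlk1 was not tested, beyond the relation of each gene to the fibroblast and skeletal muscle sums given above.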

How the data were processed

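Poly(A) RNA-seq of 12 mammary tumors was analysed. The authors deposited raw read counts per gene, not normalized, and FPKM, which the authors scaled by total count and a gene length shorter than the listed exon length (1.245 kb for H19, listed as 2.46 kb). STAR 2.6.1d, featureCounts 1.5.0-p3 and DESeq2 are named in the submitters' processing notes. Tumors were grouped by their labels. Counts were normalized by TMM, filtered with filterByExpr, which left 15504 genes and 8 of the 10 members, and tested with edgeR 4.0.16 (quasi-likelihood F test, 1 mean per group, Benjamini-Hochberg adjustment, threshold 0.05) in R 4.3.3. DESeq2 1.42.0 and limma 3.58.1 on log2(FPKM + 1) and log2(FPKM + 0.1) were alternatives. For members, the 35 splits of 8 tumors gave an exact two-sided permutation p, and relations across tumors with 100000 permutations. Tests were checked on simulated counts.

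The members, gene lists and tests were chosen with earlier results of these data known. The genes named are all members, the 10 genes most like H19 with and without its highest tumor, up to 3 genes of a list with the smallest p, genes beside H19 and Igf2 and, beyond that rule, genes the text says were picked with their values in view, among them the genes of the Dlk1 to Dio3 region and the rows of the heat map. Pairs with Igf2, fixed as part of the 45 pairs of members, were left out because Igf2 had 2 reads, and pairs with H19 carry no p. Each group held 4 mice per the study's text, taken here as 1 tumor per mouse, so p-values measure the spread between these tumors. Total counts of 16583413 to 25925027 limit precision below about 3 counts.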

Additional observations from a re-analysis of the deposited data

Results flagged for a closer look

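In 3 of 26 groups of 4 tumors (9 genes in 3 diet groups, H19 with bexarotene left out because its values chose the genes), 1 tumor lay farther from the rest than Dixon's 95% critical value allows. Chance alone flags about 1 in 20 groups when values are normally distributed and groups are independent. Here the values were CPM without logs and the same tumors served for every gene, so that rate cannot be set against 3 of 26. With bexarotene, replicate 1 stood out for Meg3 at 111 normalized CPM (gap to the next tumor 0.886 of the range of the group) and for Dlk1 at 8.23 normalized CPM (0.907 of the range). With MSU-42011, replicate 2 stood out for H19 at 0.788 normalized CPM (0.909 of the range), which rested on 13 reads.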

How the results depend on the processing

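No member was called at an adjusted p under 0.05 in any alternative run in which it was tested. H19 was left out of the comparisons with bexarotene, and Igf2 out of all of them. DESeq2 called more genes in all than edgeR, which called 0 in each comparison: 1 when MSU-42011 was set against control, 6 when bexarotene was, and 25 between the compounds, and 7, 7 and 41 without its Cook's distance filter. Leaving out 1 tumor at a time gave 0 to 1 genes for bexarotene against control (1 without MSU-42011 replicate 2). The median log2 fold change of the 8 members tested, H19 included, between the compounds went from −0.048 to 0.26 without bexarotene replicate 1. Directions also depended on single tumors. Leaving out 1 tumor at a time, the log2 fold change for MSU-42011 against control ran from −2.80 to 0.38 for H19, −0.18 to 1.23 for Dlk1, −0.51 to 0.26 for Peg3 and −0.044 to 0.17 for Grb10. For bexarotene against control it ran from −0.30 to 0.085 for Igf2r, −0.10 to 1.20 for Mest, −0.14 to 0.32 for Cdkn1c and −0.29 to 0.037 for Grb10. Between the compounds it ran from −0.84 to 0.46 for Mest and −0.55 to 0.037 for Plagl1, and for Mest it was 0.10 by limma on log2(FPKM + 0.1). H19 with bexarotene, given with no test, was 1.97 above control by limma on log2(FPKM + 1), a scale that understates changes of low genes, against 5.29 by edgeR. The cause of the other shifts was not tested.

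Replicate numbers are shared between the groups. Deviations of same-numbered tumors correlated at −0.35 to 0.349, and 5 of 12 tumors correlated best with their own number. No chance level was computed for this count, so it cannot decide whether same-numbered tumors share more than the number. Of the 28 pairs of members, 0 passed adjustment as reported, 5 on deviations from the group means and 8 with a replicate block. The counts of 5 and 8 come from permutations that took no account of the means removed, so they can be too high. Counts of a few reads limit H19, Dlk1 and Mirg in most tumors.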
